A study of Mus musculus with 6 samples.

Results

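Genes that mark the subsets of dendritic cells were read from the RNA-sequencing of whole mouse lungs: Xcr1, Clec9a, Batf3, Irf8, Cd209a, Flt3, Zbtb46, Siglech and Fscn1. They were chosen by gene symbol, with earlier results of these data known, as 9 of the 49568 symbols in the table. All 9 passed the filter on low counts, which left 19199 genes. Lungs came from 4-month-old female mice on a C57BL/6 background. The 3 TNF-Tg mice carried a transgene of human TNF-alpha, a model of erosive arthritis with pulmonary vascular disease, and the 3 WT mice were littermates without the transgene. No treatment is given for either group. The cells in which the transgene is active are not given in the sources used here, and the table of mouse symbols has no row of its own for it, so it could not serve as a check of the labels. Each mouse gave 1 library, and nothing was pooled.

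Dendritic cells take up antigen in tissues and present it to T cells. Conventional dendritic cells of type 1 carry the chemokine receptor XCR1 and the dead-cell receptor CLEC9A and depend on the transcription factors BATF3 and IRF8, while those of type 2 favour helper T cells, and mouse CD209A marks a part of them and of monocyte-derived cells. Plasmacytoid dendritic cells, marked by SIGLECH in the mouse, make type I interferon after viral infection. FLT3 is the growth factor receptor on which dendritic cell numbers depend, ZBTB46 is a transcription factor of the conventional lineage, and FSCN1 (fascin) bundles actin in the dendrites of mature cells that leave the tissue for lymph nodes. Several of these genes are also used elsewhere, Irf8 in B cells, monocytes and macrophages, and Zbtb46 in endothelial cells.

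The total counts per library were 25396923 to 30049463 in TNF-Tg and 31400978 to 32529408 in WT lungs. Detection was set at 3 counts, or 0.0881 to 0.131 CPM (counts scaled to equal library totals), and this limit reflects counting error alone. Values are normalized counts, which are counts divided by the library total scaled with edgeR's TMM factor and multiplied by the mean of that scaled total. Between the genotypes, 9096 genes were called, 47.4% of those tested, which means an adjusted p under 0.05 (edgeR). Of the genes tested, 24.0% were called higher and 23.4% lower in TNF-Tg lungs. The lung epithelial gene Sftpc had between 287376 and 515129 normalized counts in every lung. Replicate 1 of TNF-Tg had 5.22% of its counts on Gm42418, against at most 0.274% in the others, and replicate 1 of WT held 53829 normalized counts of the squamous keratin Krt4, against at most 7.68 in the others. Both lungs were left out together for the counts of calls and the fold changes of the 9 genes, but not for the ratios within lungs.

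Of the 9 dendritic cell genes, 5 rose in TNF-Tg lungs, Fscn1, Flt3, Cd209a, Batf3 and Irf8, where 24.0% of all genes did. The other 4, Xcr1, Clec9a, Zbtb46 and Siglech, did not pass the threshold, and 0 members were called lower. At an unadjusted p under 0.05, which 54.8% of all genes reached and 26.6% in the lower direction, edgeR counted 1 of the 9 lower (Zbtb46) and 6 higher. At an adjusted p under 0.05, DESeq2 (39.5% of its genes called) and limma-voom called the same 5 genes higher and 0 lower, with Zbtb46 at an adjusted p of 0.0651 and 0.0848. The median log2 fold change of the 9 genes was 1.06, beside 0.03 over all genes tested. All 3 TNF-Tg lungs lay above all 3 WT lungs for 6 of the 9 genes and below them for 1, where 30.6% of all genes did so above, 28.1% below and 58.7% in either direction. With an absolute log2 fold change of at least 1 required, the 5 genes were still called, where 22.5% of all genes were. They were also called with both first lungs left out. In RNA of a whole lung, more cells of a type and more RNA of a gene per cell cannot be told apart.

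**Figure D1:**
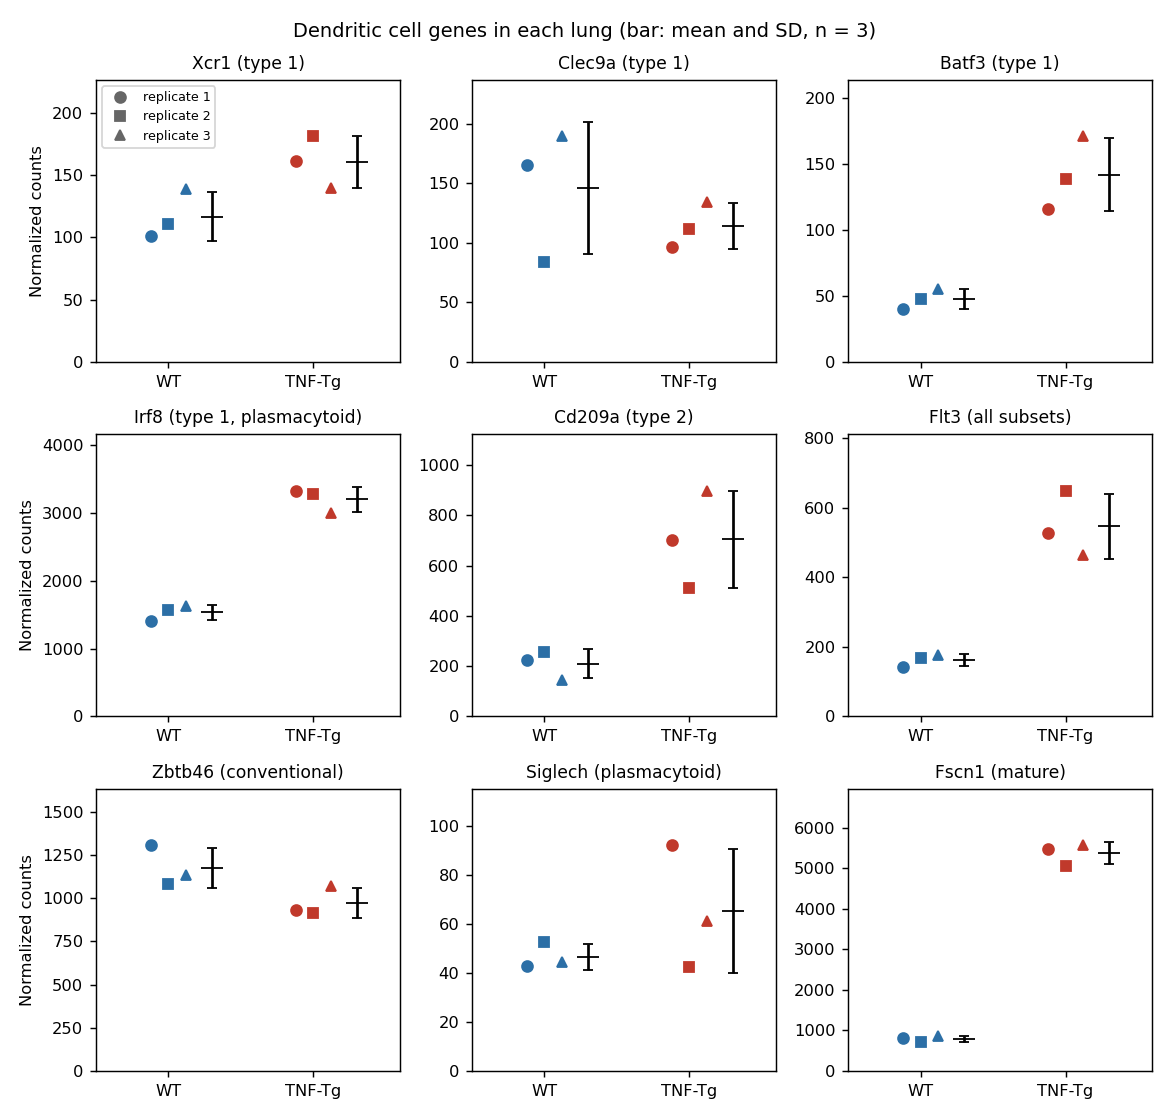
Normalized counts of the 9 genes in each lung (y axis, from 0), by genotype (x axis), with the mean and SD of 3 lungs as black bars and the replicate number as symbol shape. The TNF-Tg lungs lie apart from the WT lungs for Fscn1, Flt3, Cd209a, Batf3 and Irf8, narrowly so for Xcr1 and Zbtb46, and overlap them for Clec9a and Siglech.

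The receptors of type 1 dendritic cells were not called. Xcr1 (ENSMUSG00000060509.4, chromosome 9 of mm10, 123852315 to 123862029, minus strand) binds the chemokine XCL1 made by natural killer and CD8 T cells. It had 161, 181 and 140 normalized counts in TNF-Tg replicates 1 to 3 and 101, 110 and 139 in WT replicates 1 to 3. The groups touched without overlap, with the lowest TNF-Tg lung (replicate 3) just above the highest WT lung (replicate 3). Xcr1 thus had a log2 fold change of 0.46 with a standard error (SE) of 0.20 (adjusted p = 0.0871 by edgeR's quasi-likelihood test), with a 95% interval of 0.01 to 0.91. Without WT replicate 3 it passed the threshold, with a log2 fold change of 0.60 (adjusted p = 0.0443), while it was 0.34 without WT replicate 1 (adjusted p = 0.258), 0.36 without TNF-Tg replicate 2 (adjusted p = 0.227) and 0.32 with both first lungs left out (adjusted p = 0.404).

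Clec9a (ENSMUSG00000046080.17, chromosome 6, 129408862 to 129424763, plus strand) encodes a lectin that binds actin filaments exposed by dead cells. It had 96.3, 112 and 134 normalized counts in TNF-Tg lungs and 166, 83.5 and 189 in WT lungs. WT replicate 2 lay below every TNF-Tg lung, the other 2 WT lungs lay above them, and the SD in WT was 55.6 (n = 3) around a mean of 146. Clec9a had a log2 fold change of -0.36 (SE 0.31, adjusted p = 0.368), and its 95% interval of -1.06 to 0.35 holds both a fall to 0.479-fold and a rise to 1.27-fold. It was -0.64 without WT replicate 2 (adjusted p = 0.0537) and -0.13 without WT replicate 3 (adjusted p = 0.767), and -0.19 with both first lungs left out. Clec9a shares 184 exon bases, 5.59% of its exon length, with the neighbouring platelet gene Clec1b on the same strand, and reads there cannot be told apart. Clec1b fell (log2 fold change -2.29, adjusted p = 0.00141), and its part in the Clec9a counts was not tested.

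The transcription factors linked with the same subset both rose. Batf3 (ENSMUSG00000026630.9, chromosome 1, 191097847 to 191108945, plus strand), a partner of JUN and IRF proteins, had 116, 139 and 171 normalized counts in TNF-Tg lungs against 40.0, 48.0 and 55.1 in WT. The lowest TNF-Tg lung was above the highest WT lung by more than the SD of either group. That is a log2 fold change of 1.57 (SE 0.23, adjusted p = 0.000956), a ratio of means of 2.98. Irf8 (ENSMUSG00000041515.10, chromosome 8, 120736358 to 120756694, plus strand) had 3327, 3281 and 2993 normalized counts against 1413, 1575 and 1625. All TNF-Tg lungs lay far above all WT lungs, with an SD of 181 and 111 normalized counts. Irf8 gave a log2 fold change of 1.06 (SE 0.10, adjusted p = 8.14e-05).

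Cd209a (ENSMUSG00000031494.7, chromosome 8, 3743397 to 3748984, minus strand), a mouse homologue of the lectin DC-SIGN, rose to 3.35 times its WT mean. It had 703, 512 and 899 normalized counts in TNF-Tg lungs and 226, 258 and 146 in WT lungs. The spread was wide in both groups, with the TNF-Tg high and the WT low both in replicate 3, and the groups stayed apart. Cd209a gave a log2 fold change of 1.74 (SE 0.26, adjusted p = 0.00107). No 100-base window of the Cd209a transcripts occurs in a transcript of another gene (0 of 1716), a check of exact identity only, and how reads were assigned among the family members next to it was not tested. Of 6 Cd209 paralogs, 5 were tested and 3 rose (60.0% called, beside 47.4% of all genes). The 3 were Cd209d (log2 fold change 3.71), Cd209f (1.02) and Cd209b (0.86). Cd209c and Cd209g did not pass the threshold (-0.43 and 0.81), and Cd209e had too few counts to test.

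The promoters of the 9 genes, 250 bases before and 50 after a RefSeq start site on GRCm38.p6, were searched on both strands for 4 motifs. These were the AP-1 site TGANTCA, the interferon response element (GAAA, any 2 bases, GAAA), the ETS-IRF composite element (GGAA, any 2 bases, GAAA), to which PU.1 and an IRF protein bind together, and the NF-kB consensus. The shares of the 32851 promoters that hold them are 7.81%, 3.44%, 2.72% and 8.46%. Only 2 of the 9 genes had a match, an ETS-IRF element in Cd209a at positions -9 to 1 from the start site and an AP-1 site in Zbtb46 at -61 to -55. Neither overlaps another of the motifs. The NF-kB consensus was found in none of the 9 genes, which says only that these letters are not in these windows. The windows of the 2 genes with a match are shown with the match in capitals (chr8:3748935-3749234, minus strand, and chr2:181424339-181424638, minus strand), and that of Fscn1, the gene with the largest rise, beside them (chr5:142960105-142960404, plus strand). The Zbtb46 window, like the Batf3 window and a further window searched for Irf8, belongs to a RefSeq start that lies inside the longer annotated gene. The Fscn1 window holds 21 CpG dinucleotides, those of Cd209a and Zbtb46 hold 1 each, and the median over all promoters is 7.
Cd209a: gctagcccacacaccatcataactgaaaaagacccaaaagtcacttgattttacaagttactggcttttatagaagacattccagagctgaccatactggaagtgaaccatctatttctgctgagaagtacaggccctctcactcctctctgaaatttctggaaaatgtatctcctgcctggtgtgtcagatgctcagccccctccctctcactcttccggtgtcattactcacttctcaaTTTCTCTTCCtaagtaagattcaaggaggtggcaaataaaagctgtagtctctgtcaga
Zbtb46: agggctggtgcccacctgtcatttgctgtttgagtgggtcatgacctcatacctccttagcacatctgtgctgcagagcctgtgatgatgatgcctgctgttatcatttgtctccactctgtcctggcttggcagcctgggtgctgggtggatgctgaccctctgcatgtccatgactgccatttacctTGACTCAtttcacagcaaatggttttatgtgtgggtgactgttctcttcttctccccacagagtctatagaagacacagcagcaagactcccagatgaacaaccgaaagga
Fscn1: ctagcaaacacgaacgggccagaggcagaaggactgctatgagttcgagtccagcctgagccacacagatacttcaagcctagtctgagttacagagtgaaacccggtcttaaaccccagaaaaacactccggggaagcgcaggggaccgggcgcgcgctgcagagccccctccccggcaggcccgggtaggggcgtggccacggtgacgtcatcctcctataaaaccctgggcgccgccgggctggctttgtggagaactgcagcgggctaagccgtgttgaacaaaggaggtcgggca

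The growth factor receptor and the lineage factor of conventional dendritic cells parted. Flt3 (ENSMUSG00000042817.15, chromosome 5, 147330741 to 147400489, minus strand) had 528, 649 and 465 normalized counts in TNF-Tg lungs and 142, 168 and 177 in WT. The groups lay wide apart, and the rise was 3.37-fold between means (log2 fold change 1.75, standard error 0.17, adjusted p = 0.000108). Its ligand gene Flt3l was not called, with 1762 ± 35.7 normalized counts (SD, n = 3) against 1976 ± 88.6 (SD, n = 3) and a log2 fold change of -0.17 (adjusted p = 0.121).
Zbtb46 (ENSMUSG00000027583.13, chromosome 2, 181387762 to 181459426, minus strand), which is used by conventional dendritic cells and endothelium but not by plasmacytoid cells, had 934, 914 and 1072 normalized counts in TNF-Tg lungs and 1308, 1081 and 1137 in WT. Every TNF-Tg lung lay below every WT lung, narrowly so between TNF-Tg replicate 3 and WT replicate 2. Zbtb46 had a log2 fold change of -0.27 (SE 0.11, adjusted p = 0.0780), with a 95% interval of -0.54 to -0.01. Without TNF-Tg replicate 3 it passed the threshold (log2 fold change -0.36, adjusted p = 0.0422), while it was -0.21 without WT replicate 1 (adjusted p = 0.208) and -0.20 with both first lungs left out (adjusted p = 0.376). Of 8 endothelial markers, 7 fell and 1 rose (Emcn), where 23.4% of all genes tested fell and 24.0% rose. The summed normalized counts of these markers were 46294 to 53666 in TNF-Tg and 87465 to 104036 in WT lungs, with no marker at 0. Their part in the Zbtb46 values was not tested.

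Siglech (ENSMUSG00000051504.18, chromosome 7, 55768178 to 55778925, plus strand) had 41 to 70 counts per lung and the lowest level of the 9 genes per kilobase of exon. It had 92.3, 42.4 and 61.4 normalized counts in TNF-Tg lungs and 42.8, 52.8 and 44.5 in WT lungs. TNF-Tg replicate 1 was the highest and TNF-Tg replicate 2 the lowest of all lungs, so the groups overlapped. The log2 fold change of 0.47 had a standard error of 0.31 (adjusted p = 0.241) and a 95% interval of -0.24 to 1.19, so a change of up to 2.28-fold is within the error. Single lungs moved the value, to 0.12 without TNF-Tg replicate 1 and 0.71 without TNF-Tg replicate 2 (adjusted p = 0.778 and 0.0857), and it was 0.06 with both first lungs left out.

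Fscn1 (ENSMUSG00000029581.14, chromosome 5, 142960343 to 142973185, plus strand) rose most. It had 5470, 5064 and 5573 normalized counts in TNF-Tg lungs and 812, 711 and 856 in WT lungs. The lowest TNF-Tg lung stood far above every WT lung, and both groups were tight, at 5369 ± 269 (SD, n = 3) against 793 ± 74.2 (SD, n = 3). Fscn1 had a log2 fold change of 2.76 (SE 0.11, adjusted p = 3.26e-06), a 6.77-fold ratio of means and rank 30 by p-value among the 19199 genes. A log2 fold change at least as large was fitted for 2.91% of the genes tested.

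**Figure D2:**
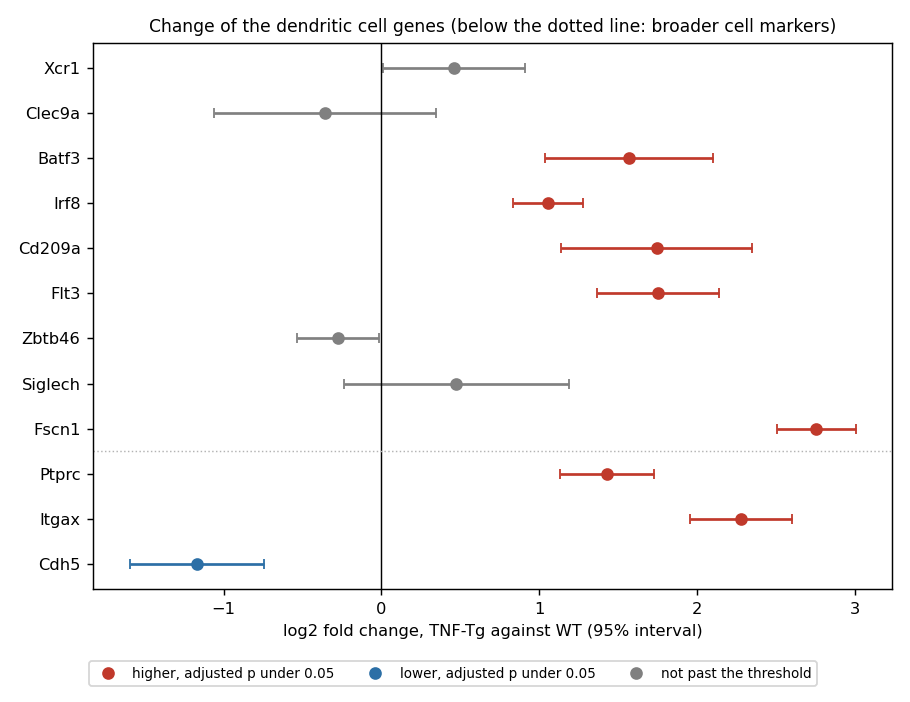
Log2 fold change of TNF-Tg against WT lungs (x axis) with its 95% interval for the 9 genes and, below the dotted line, for Ptprc, Itgax and Cdh5, from edgeR's fit. Fscn1 at 2.76 lies highest of the 9, the intervals of Clec9a and Siglech cross 0, and those of Xcr1 and Zbtb46 end close to 0.

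Levels can be set side by side per length of exon, in CPM per kilobase. In WT lungs Fscn1 had the highest level (8.69 ± 0.813, SD, n = 3), followed by Irf8 (7.20 ± 0.518), Zbtb46 (4.56 ± 0.459) and Cd209a (4.38 ± 1.21). Zbtb46 and Cd209a did not differ beyond their spread. Clec9a (1.47 ± 0.557), Batf3 (0.986 ± 0.157), Flt3 (0.867 ± 0.0978) and Xcr1 (0.865 ± 0.146) overlapped among the lungs, and Siglech was lowest at 0.456 ± 0.0521. In TNF-Tg lungs the order changed. Fscn1 stood at 58.9 ± 2.95, and Cd209a reached 14.7 ± 4.03, a level that overlapped that of Irf8 (14.98 ± 0.847). Zbtb46 was at 3.78 ± 0.333. Batf3 (2.94 ± 0.571) and Flt3 (2.93 ± 0.501) now lay above Xcr1 (1.19 ± 0.153) and Clec9a (1.14 ± 0.191) in every lung, and Siglech stayed lowest at 0.638 ± 0.246.

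**Figure D3:**
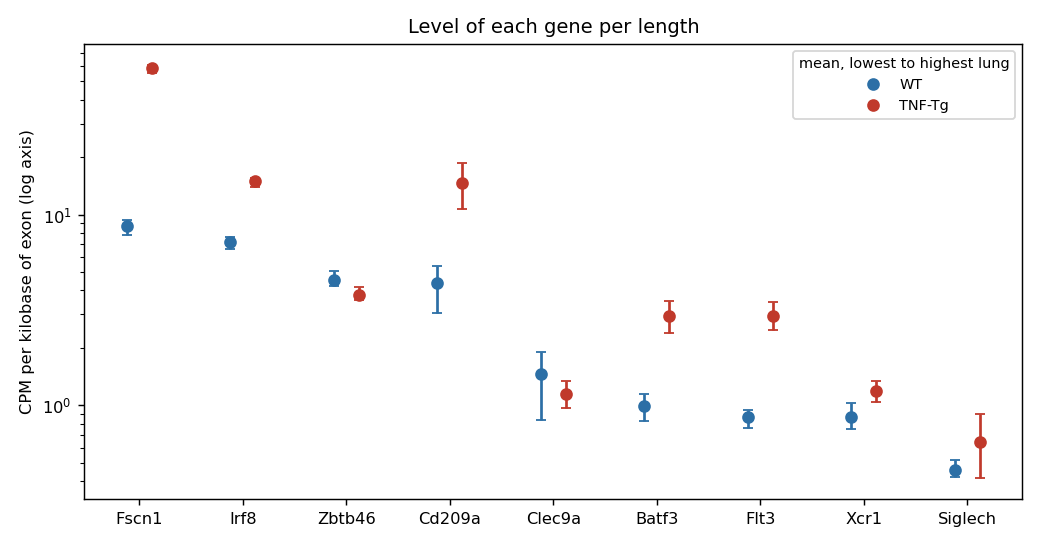
Level of each gene in CPM per kilobase of exon (y axis, log scale) in WT and TNF-Tg lungs, as the mean with bars from the lowest to the highest of 3 lungs, ordered by the WT mean. Batf3 and Flt3 share the range of Xcr1 in WT lungs and lie above it in TNF-Tg lungs.

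Since leukocyte RNA as a whole was higher in TNF-Tg lungs, each gene was also set against Ptprc, which encodes the pan-leukocyte antigen CD45, within each lung. Ptprc had 6463 ± 677 normalized counts (SD, n = 3) in TNF-Tg and 2393 ± 303 (SD, n = 3) in WT lungs (log2 fold change 1.43, adjusted p = 8.14e-05). A ratio within a lung does not depend on the library scaling. Because Ptprc itself rose by 1.43, a gene with an unchanged level also lies lower relative to it. The median log2 fold change over all genes tested was 0.03. A lower ratio is therefore not by itself a fall of the gene, and the share of all genes with lower ratios was not computed. Per 100 normalized counts of Ptprc, Xcr1 had 2.34, 3.19 and 2.05 in TNF-Tg lungs and 4.60, 4.03 and 6.19 in WT lungs. Every TNF-Tg lung was below every WT lung, and the log2 ratio differed by -0.97.
Clec9a had 1.40, 1.97 and 1.97 per 100 Ptprc counts in TNF-Tg and 7.55, 3.05 and 8.45 in WT lungs, a difference of -1.72 in the log2 ratio. Zbtb46 had 13.6, 16.1 and 15.7 against 59.7, 39.4 and 50.7, a difference of -1.71. Siglech had 1.34, 0.747 and 0.901 against 1.95, 1.93 and 1.98, a difference of -1.02. These 3 genes also lay lower in every TNF-Tg lung. Fscn1 alone of the 9 lay higher in every TNF-Tg lung, with 79.4, 89.1 and 81.7 against 37.0, 25.9 and 38.1, a difference of 1.33.
For these 5 genes the two-sided exact permutation test gave p = 0.1, the smallest that 3 lungs against 3 allow, and 0.18 after adjustment over the 9 genes. The groups overlapped for Irf8 (difference -0.38, exact permutation p = 0.2), Cd209a (0.31, p = 0.5), Flt3 (0.31, p = 0.3) and Batf3 (0.12, p = 0.9). With 1 lung left out in turn, the differences ran from 0.11 to 0.44 for Cd209a, 0.09 to 0.46 for Flt3 and 0.02 to 0.31 for Batf3. Other pan-leukocyte genes were then put in the place of Ptprc, a choice made after the data were seen. With Cd53 the differences of Cd209a, Flt3 and Batf3 turned to -0.33, -0.33 and -0.52, the last with groups apart. With Laptm5 and Coro1a they were 0.42 and 0.57 for Cd209a, 0.41 and 0.56 for Flt3, and 0.23 and 0.38 for Batf3, and the TNF-Tg lungs lay higher throughout for Flt3 with both and for Batf3 with Coro1a. The direction of these 3 genes thus depended on the base. Irf8 was lower with each base but by unequal amounts, at -1.01 with Cd53, -0.27 with Laptm5 and -0.12 with Coro1a, where the groups overlapped with the last. In the same order, Xcr1 had -1.61, -0.86 and -0.71, Clec9a -2.36, -1.61 and -1.46, and Zbtb46 -2.34, -1.60 and -1.45, each with the groups apart. Siglech had -1.66, -0.91 and -0.76, and its groups overlapped with Coro1a (exact permutation p = 0.2). Fscn1 lay higher in every TNF-Tg lung with each base, by 0.69, 1.43 and 1.58.

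**Figure D4:**
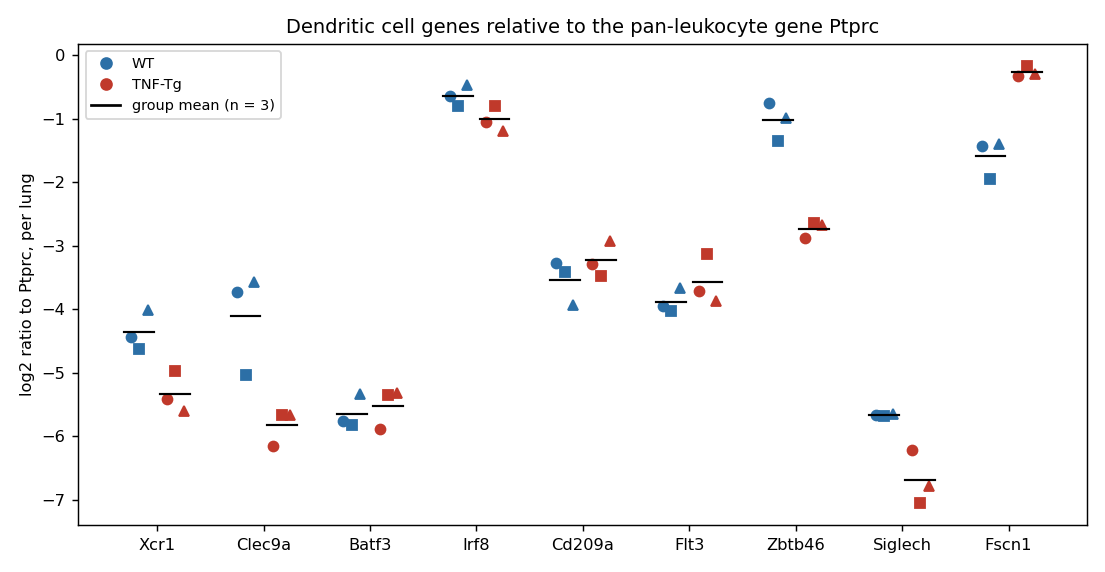
Log2 ratio of each of the 9 genes to Ptprc in each lung (y axis), with group means as lines and the replicate number as symbol shape. Xcr1, Clec9a, Zbtb46 and Siglech lie lower in all 3 TNF-Tg lungs than in all 3 WT lungs, Fscn1 lies higher, and the other 4 genes overlap.

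The 8 pairs of genes were compared in the same way, each by an exact two-sided permutation test with 0.1 as its smallest p. Within the type 1 genes, the log2 ratio of Xcr1 to Clec9a was 0.50 ± 0.38 (SD, n = 3) in TNF-Tg and -0.25 ± 0.58 (SD, n = 3) in WT lungs, which overlapped (exact permutation p = 0.2, adjusted 0.267 over the 8 pairs). Xcr1 relative to the type 2 gene Cd209a was lower in every TNF-Tg lung, with log2 ratios of -2.12, -1.50 and -2.68 against -1.16, -1.22 and -0.07. The groups overlapped for Siglech relative to Xcr1 (difference -0.05, exact permutation p = 0.9), and the difference ran from -0.33 to 0.32 with 1 lung left out. Batf3 relative to Irf8 was higher in every TNF-Tg lung, at -4.84, -4.56 and -4.13 against -5.13, -5.02 and -4.87.
Zbtb46 relative to Flt3 had the log2 ratios 0.82, 0.49 and 1.204 in TNF-Tg and 3.20, 2.68 and 2.68 in WT lungs. Fscn1 relative to Zbtb46 showed the widest gap, with 2.55, 2.47 and 2.38 against -0.69, -0.60 and -0.41, an 8.19-fold shift. Set against the endothelial cadherin gene Cdh5, which fell (log2 fold change -1.17, adjusted p = 0.00135), Zbtb46 was higher in every TNF-Tg lung, by 0.90 on the log2 scale. The 5 pairs whose groups lay apart had an exact permutation p of 0.1, adjusted 0.16. Each difference restates, within lungs, the unlike fold changes of its 2 genes. The share of all gene pairs that lie apart was not computed. Irf8 relative to the B cell gene Cd79a overlapped (difference -0.03, exact permutation p = 0.9), and Cd79a itself rose (log2 fold change 1.04, adjusted p = 0.00692).

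Lists of further genes of each subset placed the 9 genes in their setting. Of 10 other type 1 genes, 3 rose, 2 fell and 5 were not called, and their median log2 fold change was -0.02. The 5 of 10 called is a share near the 47.4% of all genes. Cadm1, an adhesion molecule also made by epithelium, fell by 1.16 on the log2 scale (adjusted p = 7.73e-05). Id2, a repressor of E proteins that many lymphoid and myeloid cells use, rose (1.15, adjusted p = 0.000193), and so did Ifi205, an interferon-inducible gene (1.07, adjusted p = 0.000329). Itgae also fell (-0.72, adjusted p = 0.0199 by edgeR), and Wdfy4 also rose (0.59, adjusted p = 0.00320). Tlr3, the sensor of double-stranded RNA, had a log2 fold change of -0.26 and was not called (adjusted p = 0.128).

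Of 10 other type 2 genes, 7 rose and 2 fell, where 24.0% of all genes tested rose and 23.4% fell. Sirpa, an inhibitory receptor of myeloid cells, rose from 3239 ± 170 to 17914 ± 1055 normalized counts (SD, n = 3 each, log2 fold change 2.47). Irf4, a transcription factor of type 2 cells and of plasma cells, rose by 1.89 (adjusted p = 0.000407), and Esam, an adhesion molecule shared with endothelium, fell by 1.04. Klf4 also fell (log2 fold change -0.72, adjusted p = 0.00382 by edgeR). The lectin gene Clec10a rose by 1.601, beside 1.74 for Cd209a. Of 14 other plasmacytoid genes, 13 were tested, 9 rose and 3 fell, with a median of 0.84. Those with the smallest p were Tlr7, an RNA sensor (2.17), Spib, a transcription factor shared with B cells (2.49), and Ccr9, a chemokine receptor shared with T cells (3.21), while Siglech had 0.47. Tcf4, which specifies plasmacytoid cells, rose by 0.75.

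Of 19 other genes of mature, migratory cells, 18 were tested, 10 rose and 4 fell (77.8% called, beside 47.4% of all genes). Marcksl1, an actin-binding protein (log2 fold change 2.96), Relb, a subunit of NF-kB (2.58), and Cd274, which encodes PD-L1 (1.84), rose beside Fscn1. Against these, Ccr7, the receptor that guides mature cells to lymph nodes, fell from 410 ± 98.5 to 266 ± 24.998 normalized counts (SD, n = 3 each, log2 fold change -0.63, adjusted p = 0.0267). Ccl22, a chemokine of mature dendritic cells, fell from 502 ± 79.2 to 167 ± 30.7 (log2 fold change -1.59, adjusted p = 0.000293). Ccr7, Ccl22, Cd200 and Ankrd33b were the 4 that fell. They are named, like Tlr3, Itgae, Wdfy4, Clec10a, Klf4, Tcf4, Klk1, Cox6a2 and Smim5, after their values were seen.

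Of 22 genes of development, 15 rose and 3 fell, where 24.0% of all genes tested rose and 23.4% fell. The receptor chains Csf2rb2 (log2 fold change 3.29) and Csf2rb (2.70) and the transcription factor Spi1, which encodes PU.1 (2.32), had the smallest p. The growth factor gene Csf2 had 45.7 ± 13.7 against 44.7 ± 11.7 normalized counts (SD, n = 3 each) and was not called. Of 9 broad genes, 6 rose and 1 fell, led by Adam23 (3.38), Itgax, which encodes CD11c (2.28), and Rab7b (1.42). Of 10 ligands and chemokine partners, 8 rose and 1 fell, and those with the smallest p were Ccl19, a ligand of CCR7 (5.43), and the chemokine receptor genes Cx3cr1 (2.33) and Ccr2 (1.94). Xcl1, the ligand of XCR1, rose from 9.29 ± 1.51 to 27.9 ± 14.5 normalized counts (SD, n = 3 each, log2 fold change 1.58, adjusted p = 0.0239). Together 74 of 92 tested genes of these lists were called, 80.4%, beside 47.4% of all genes. Many are shared with macrophages, B cells or endothelium. The lists were chosen with earlier results of these data known, so this share is not a test of an excess.

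**Figure D5:**
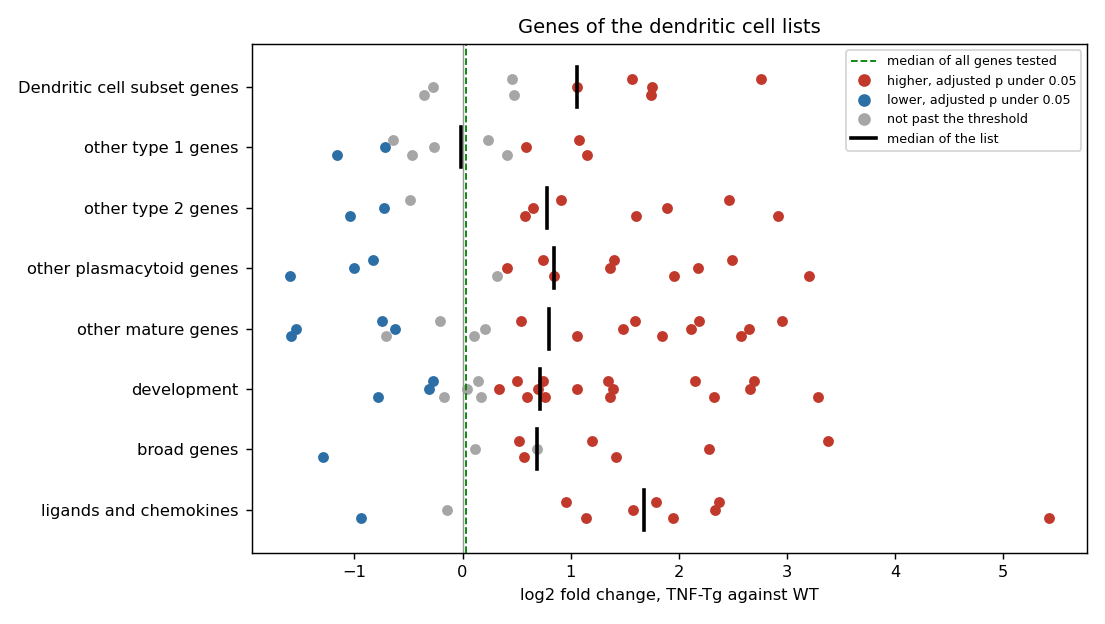
Log2 fold change of TNF-Tg against WT lungs (x axis) for each tested gene of the 9 dendritic cell subset genes and of 7 further lists, coloured by edgeR's call, with the list's median as a black bar and the median of all genes as a dashed line. The median of the other type 1 genes lies at -0.02, and that of the ligands and chemokines at 1.68.

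Markers of other cells moved with the genotype, where 24.0% of all genes tested rose and 23.4% fell. All 7 macrophage markers rose, with summed normalized counts of 81829 to 131721 in TNF-Tg and 8832 to 10873 in WT lungs, and 3 of 7 B cell markers rose and 4 were not called (42.9% called, beside 47.4% of all genes), with sums of 8214 to 8346 against 3831 to 6766. Of 7 monocyte markers 6 rose and Ace, also made by endothelium, fell, and their sum, mostly Ace, was lower in TNF-Tg lungs, at 30098 to 34487 against 68321 to 76901. Of 7 T cell markers 6 rose, with sums of 10898 to 15318 against 1647 to 2771, in TNF-Tg lungs mostly from Cd4. Of 5 lung epithelial markers 4 fell, with sums of 497387 to 651937 against 1009203 to 1226723, and all 4 pan-leukocyte genes rose. None of these markers was at 0 in all lungs, and their part in the values of Irf8, Cd209a, Flt3 and Fscn1 was not tested.

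The genes whose log2 CPM profile over the 6 lungs, centred on its mean, lay nearest to each of the 9 were sought among 16494 tested genes by the root mean square difference. For Fscn1 they were C5ar1 (0.07) and Nr5a2 (0.09), for Flt3 Fth-ps2 and Pde2a (both 0.07), for Irf8 Snx5 and Coro1b (both 0.05), and for Batf3 Ly96 and Usp35 (both 0.10). For Cd209a the nearest was Ccdc184 (0.08). Xcr1 lay nearest to Cox4i1 and Rpl10a (both 0.04), genes of respiration and the ribosome, and Zbtb46 to Ddit3 and Slfn5 (both 0.04). For Clec9a they were Tspyl5 (0.15) and Ift74 (0.16), and for Siglech Gm20604 and Mcm8 (both 0.12).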

How the data were processed

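Whole lungs of 3 TNF-Tg and 3 WT mice were sequenced as stranded poly(A) libraries, with single reads. The authors deposited raw counts per gene symbol, without normalization. The submitters' processing notes name Trimmomatic (0.36), STAR (2.5.2b), featureCounts and the build GRCm38.p5, and the annotation and strand setting are not given in the sources used here. Columns were matched to mice by genotype and number. The members and gene lists were chosen with earlier results of these data known.

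Counts were tested with edgeR (4.0.16, R 4.3.3) after filterByExpr and TMM, fitting genotype alone in a quasi-likelihood model, and p-values were adjusted by Benjamini-Hochberg over 19199 genes. The standard error is the log2 fold change divided by the square root of F, and 95% intervals use the test's degrees of freedom. Log2 CPM used a prior count of 2, and ratios added 0.5 to each normalized count. Exact permutation tests were two-sided. Positions and exon lengths are from GENCODE M21 on the same build, and promoters from RefSeq on GRCm38.p6, whose chromosome sequences are those of p5. All 9 members matched both. Jaml was read under its older symbol Amica1. Named genes were the members, the 3 genes of each further dendritic cell list with the smallest p, genes used in a ratio, the 2 nearest profiles (1 of them is not reported here), and others said to be chosen after their values were seen. Flt3l, Csf2, Xcl1, Cd209 paralogs and marker genes named beyond these were also chosen so.

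Alternatives were DESeq2 (1.42.0), limma-voom (limma 3.58.1), DESeq2 size factors, total counts only, no filter, 10 counts in every lung, omission of each lung, replicate number as a block, a log2 fold change of at least 1 in size, and, added after the data were seen, both first lungs left out and other base genes for the ratios. The fits were tested on simulated counts. The 6 mice are separate animals. Replicates of a genotype differed by 53.7 to 140 in chi-square per degree of freedom, beyond sampling noise.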

Additional observations from a re-analysis of the deposited data

How the results depend on the processing

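The calls of Fscn1, Flt3, Cd209a, Batf3 and Irf8 held in all 15 fits, and the direction of all 9 genes was the same in each. Clec9a and Siglech were called in 0 of 15, by edgeR, DESeq2 or limma-voom, and Xcr1 and Zbtb46 in 1 each. With each lung left out in turn, 7347 to 9164 genes were called, 5 to 6 of the 9 genes, and 61 to 70 of the other dendritic cell genes. A minimum absolute log2 fold change of 1 left 4320 genes and 48 of the other dendritic cell genes, by its construction. With both first lungs left out, 6064 genes and 61 of the other dendritic cell genes were called. A replicate block by number gave 7686 called genes, 5 of the 9 and 67 of the others. Same-numbered lungs did not deviate together (correlations across genes -0.24 to -0.004), and no lung correlated best with its own number, so the numbers were not taken as pairs. The block leaves the ratios as they are, since it averages the same differences. With Cd53 in place of Ptprc the log2 ratio differences of Batf3, Cd209a and Flt3 reversed to -0.52, -0.33 and -0.33. With a lung left out, the small differences of Siglech to Xcr1 (-0.33 to 0.32) and Irf8 to Cd79a (-0.26 to 0.12) took either sign, while Siglech to Xcr1 without TNF-Tg replicate 2 was 0.32 and without WT replicate 2 was 0.08, and Irf8 to Cd79a without TNF-Tg replicate 1 was 0.02, without WT replicate 1 0.12 and without WT replicate 2 0.05. Siglech, at 41 to 70 counts per lung, and Clec9a, with its spread in WT, limit what could be detected.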

Other observations

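The Langerhans cell gene Cd207, which encodes the lectin langerin, had 38.2, 32.1 and 35.0 normalized counts in TNF-Tg lungs and 43.8, 49.9 and 41.8 in WT lungs, so that every TNF-Tg lung lay below every WT lung, as for 28.1% of all genes tested. Its log2 fold change of -0.37 was not past the threshold (adjusted p = 0.230 by edgeR). Of the other Langerhans cell markers, Cd1d1, an antigen-presenting molecule of many cells, rose (0.55, adjusted p = 0.0183) and Epcam, also an epithelial gene, fell (-0.43, adjusted p = 0.0128). The thymocyte genes Rag1, Dntt and Ptcra had too few counts to be tested.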
